A study of Mus musculus with 2 samples.

Results

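Potassium channel genes and the sulfonylurea receptor genes were examined in GFP-positive cells that had been sorted from the pancreata of e15.5 mouse embryos carrying NGN3-EGFP. All gene symbols that begin with Kcn were taken, together with Abcc8 and Abcc9, which gave 97 of the 23284 symbols in the count files. They comprised 77 pore-forming subunits, 16 auxiliary subunits, 2 sulfonylurea receptors, the noncoding RNA gene Kcnq1ot1 and the regulator gene Kcnrg. The series has 1 group of 2 libraries, replicates 1 and 2, on a background the labels call mixed C57BL6. No other genotype, stage or sorted population enters, so every value describes this population and none compares conditions. How the EGFP reporter was built is not given in the labels, and nothing says whether the libraries came from separate litters. The spread between them may therefore be technical.

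Potassium channels set the resting potential of a cell and bring it back after depolarization. In pancreatic beta cells the ATP-sensitive channel, built from Kir6 pore subunits and sulfonylurea receptors, closes when glucose metabolism raises ATP. The membrane then depolarizes, calcium channels open and insulin is released. Voltage-gated, calcium-activated and two-pore domain channels shape the electrical activity that follows.

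The libraries held 12495143 and 12043734 counted reads. All 7 endocrine markers checked, Neurog3 among them, were at or above 1 CPM (reads of the gene scaled to a library of 1000000 reads) in both libraries. Their summed level was 9292 CPM in replicate 1 against 9442 in replicate 2, a sum that hides differences in both directions. By an exact binomial test 3 of the 7 were higher in replicate 1, where 41.7% of all genes tested were called in that direction. Another 3 were higher in replicate 2, where 44.1% were. Neurog3 was among the former, at 736 CPM in replicate 1 against 551 in replicate 2. The mesenchymal markers, 4 of 6 of which reached 1 CPM in both libraries, summed to 351 CPM in replicate 1 against 96.1 in replicate 2. The neural crest and glial markers, 3 of 6 of which did so, summed to 270.4 and 114 CPM, with Foxd3 at 0 in both libraries. The libraries are pools of cells, so fewer cells with a transcript and less transcript per cell cannot be told apart.

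Expression was concentrated in few genes. The members took 0.262% of all reads in replicate 1 (exact Clopper-Pearson 95% interval 0.259 to 0.265, counting error only) and 0.264% in replicate 2 (0.261 to 0.267). Abcc8 alone held 45.6% and 46.6% of these reads. At 1 CPM or more in both libraries were 30 of 97 members, or 30.9%, where 45.7% of all genes in the files passed the same limit. A further 10 members reached it in replicate 1 only and 9 in replicate 2 only, against 4.56% and 5.87% of all genes. Of the members that passed in either library 61.2% passed in both, against 81.4% of all genes. No read in either library was found for 18 members, against 34.9% of all genes. The remaining 30 had reads but stayed under 1 CPM in both. Without a read were Kcna3, Kcna7, Kcna10, Kcne1, Kcne4, Kcnh4, Kcnh5, Kcnj1, Kcnj12, Kcnj16, Kcnk6, Kcnk15, Kcnk18, Kcnmb3, Kcnn4, Kcns3, Kcnu1 and Kcnv2. At a limit of 5 CPM in both libraries 19 members passed, against 37.7% of all genes. The median member was at 0.56 CPM and the median gene of the files at 2.27 CPM. A mean of at least 50 CPM was reached by 8 members, against 18.7% of all genes.

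**Figure D1:**
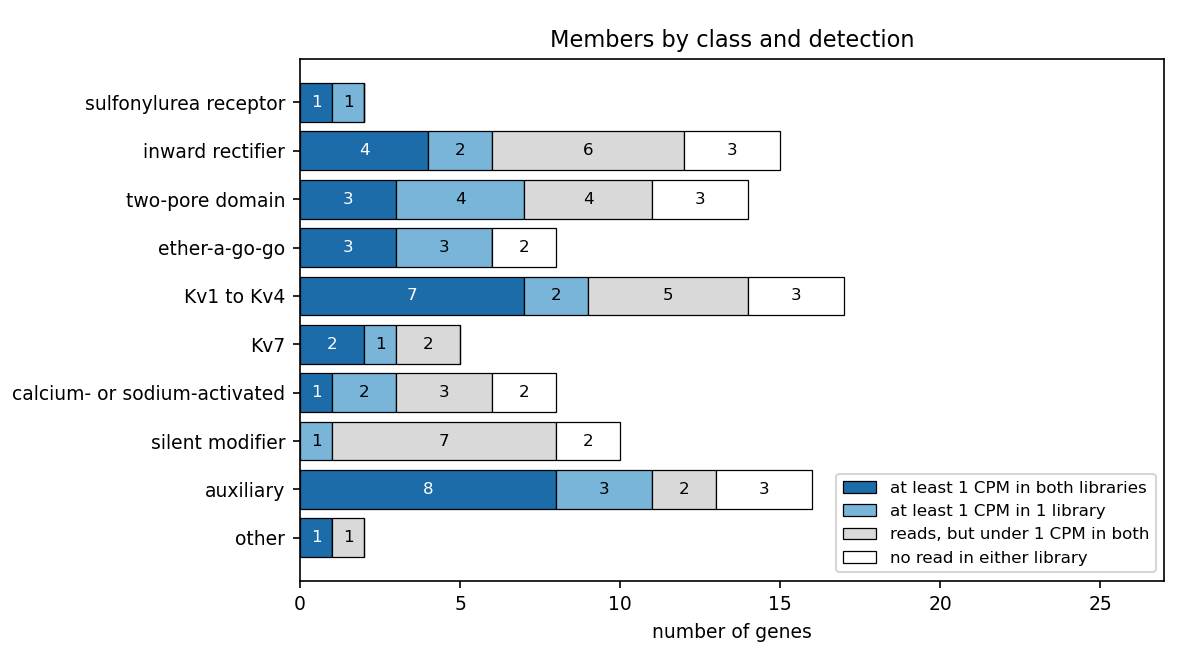
The horizontal axis gives the number of genes and each bar is 1 class of subunits, split by detection. Auxiliary subunits and the Kv1 to Kv4 class had 8 of 16 and 7 of 17 genes at or above 1 CPM in both libraries, and the silent modifier class had 0 of 10.

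By class, 8 of 16 auxiliary subunits, 7 of 17 subunits of the Kv1 to Kv4 families, 4 of 15 inward rectifiers, 3 of 14 two-pore domain channels, 3 of 8 ether-a-go-go channels, 2 of 5 Kv7 channels and 1 of 8 calcium- or sodium-activated channels were at or above 1 CPM in both libraries. None of the 10 silent modifier subunits, which form no channel alone and alter Kv2 channels, was. Within the Kv families all 8 Kcna genes missed the limit, while 2 of 3 Kcnd genes met it.

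To compare genes with each other, CPM was divided by the exon length of each gene. On this scale, CPM per kb of exon (RPKM), Abcc8 was highest at 248 ± 3.47 (SD, n = 2). It was followed by the pore genes Kcnk16 at 90.9 ± 1.19, Kcnj11 at 52.5 ± 33.1, Kcnh6 at 48.0 ± 3.90 and Kcnh2 at 22.0 ± 15.3. Kcnk16, Kcnj11, Kcnh6 and Kcnh2 together made up 82.0% of the summed per-kb level of the 77 pore genes in replicate 1 and 74.2% in replicate 2. Abcc8 and Kcnk16 were the highest and the next in both libraries, separated by far more than their spread. Kcnj11 lay above Kcnh6 in replicate 1, at 75.9 against 45.3, and below it in replicate 2, at 29.1 against 50.8, so their order was not resolved. Of the 10 highest members in one library, 7 were among the 10 highest in the other. Over the 53 members with at least 10 reads in total, Spearman's rho of the per-kb level between the libraries was 0.508, a description across genes that share the same pair of libraries.

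**Figure D2:**
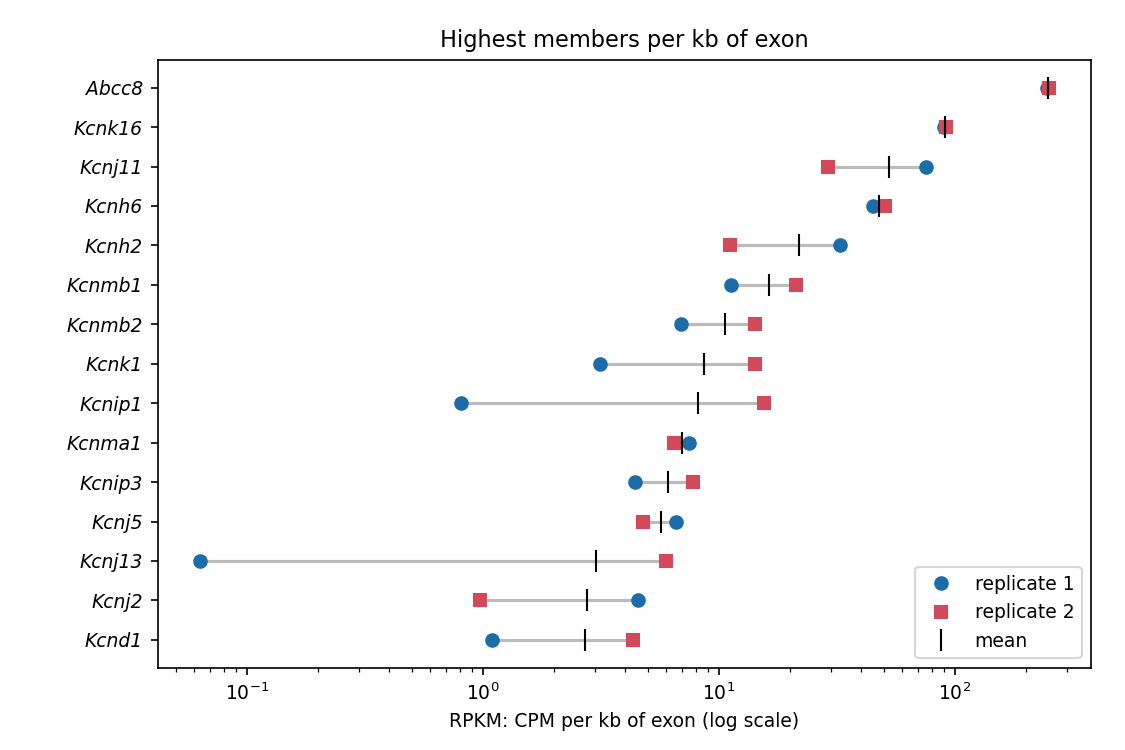
The horizontal axis gives RPKM on a log scale for the highest members described here. Circles are replicate 1, squares replicate 2 and ticks the mean; the libraries nearly coincide for Abcc8 and Kcnk16 and lie far apart for Kcnip1, at 0.81 and 15.6, and for Kcnj13, at 0.063 and 5.99.

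The promoters of the pore genes Kcnk16 and Kcnh6 are shown because these were the highest, among pore genes with an entry in the table of RefSeq promoters (GRCm38.p6), whose libraries also lay within 2-fold. Each window runs from 250 bases before to 50 bases after the annotated start. Capitals mark E-boxes, the sequence CANNTG that basic helix-loop-helix factors such as NEUROG3 and NEUROD1 bind, which reads the same on both strands. The Kcnk16 window lies at chr14:20269220-20269519 on the minus strand and the Kcnh6 window at chr11:106007898-106008197 on the plus strand.
Kcnk16: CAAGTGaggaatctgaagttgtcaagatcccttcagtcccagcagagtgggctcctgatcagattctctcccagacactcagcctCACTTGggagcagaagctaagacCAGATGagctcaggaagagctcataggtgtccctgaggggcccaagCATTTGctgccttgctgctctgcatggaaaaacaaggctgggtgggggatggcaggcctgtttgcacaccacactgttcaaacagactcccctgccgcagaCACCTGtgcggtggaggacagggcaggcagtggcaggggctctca
Kcnh6: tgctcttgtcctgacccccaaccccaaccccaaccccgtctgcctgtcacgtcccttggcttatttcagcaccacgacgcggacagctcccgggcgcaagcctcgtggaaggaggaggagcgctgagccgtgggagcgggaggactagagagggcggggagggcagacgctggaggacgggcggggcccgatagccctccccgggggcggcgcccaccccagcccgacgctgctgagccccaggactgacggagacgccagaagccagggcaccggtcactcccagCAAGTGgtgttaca

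The Kcnk16 window held 5 E-boxes and the Kcnh6 window 1. Of the 32851 windows searched, 2.1% held as many as the Kcnk16 window or more. The window of Kcnma1, a further abundant pore gene, held 0. An E-box was present in 72.3% of all windows and in 71 of the 96 windows of the 71 members with an entry, or 74.0%. For members detected in both libraries it was present in 27 of 34 windows, or 79.4%, from 21 genes. For the other members it was present in 44 of 62 windows, or 71.0%, from 50 genes. Some genes have several windows, and the difference between these shares was not tested. Matches are letters in a window and were not tested for binding. Abcc8 and Kcnj11 are among the 26 members without an entry.

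Of the sulfonylurea receptors, Abcc8, which encodes SUR1 of the beta cell channel, was at 1199.9 CPM in replicate 1 (95% interval 1181 to 1219) against 1224 in replicate 2 (1204 to 1244). The libraries differed by 1.02-fold, which was within counting error (adjusted p = 0.101, exact binomial test, adjusted by Benjamini-Hochberg over all genes). Abcc9, which encodes SUR2 of cardiac and smooth muscle channels, was at 11.2 CPM in replicate 1 (9.39 to 13.2) against 0.74 in replicate 2 (0.34 to 1.41). Abcc8 was above Abcc9 by 107-fold in replicate 1 against 1645-fold in replicate 2, and per kb of exon by 184-fold and 2824-fold. The exons of Abcc9 overlap those of 5330439B14Rik on the opposite strand, so part of its reads could belong to either.

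Among Kir6 pore genes, Kcnj11, which encodes Kir6.2 and lies next to Abcc8 on chromosome 7, was at 238 CPM in replicate 1 (229.9 to 247) against 91.4 in replicate 2 (86.1 to 96.98). These intervals did not overlap, and replicate 1 was 2.61-fold higher. Kcnj8, which encodes Kir6.1 and lies next to Abcc9 on chromosome 6, had 2 reads in each library. Kcnj11 was above Kcnj8 by 1483-fold in replicate 1 (counting interval 410.2 to 12251) against 553-fold in replicate 2 (153 to 4572), and per kb of exon by 1203-fold and 448-fold. In each library both genes of the SUR1 and Kir6.2 pair were thus far above both genes of the SUR2 and Kir6.1 pair. Per kb of exon Abcc8 stood above Kcnj11 by 3.24-fold in replicate 1 against 8.62-fold in replicate 2. In the assembled channel the pore and receptor subunits are present in equal number.

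Pericytes and smooth muscle are known for Kcnj8 and Abcc9. Of 7 markers of these cells, 2 reached 1 CPM in both libraries, and they summed to 26.7 CPM in replicate 1 against 16.1 in replicate 2, with Myh11 at 0 and 1 read. By the exact binomial test 3 of the 7 were higher in replicate 1, namely Notch3, Pdgfrb and Rgs5, where 41.7% of all genes tested were called in that direction. Cspg4, with 0 and 27 reads, was higher in replicate 2, where 44.1% were. Abcc9 and the summed mesenchymal markers were lower in replicate 2, and the part of such cells in the Abcc9 level was not tested.

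**Figure D3:**
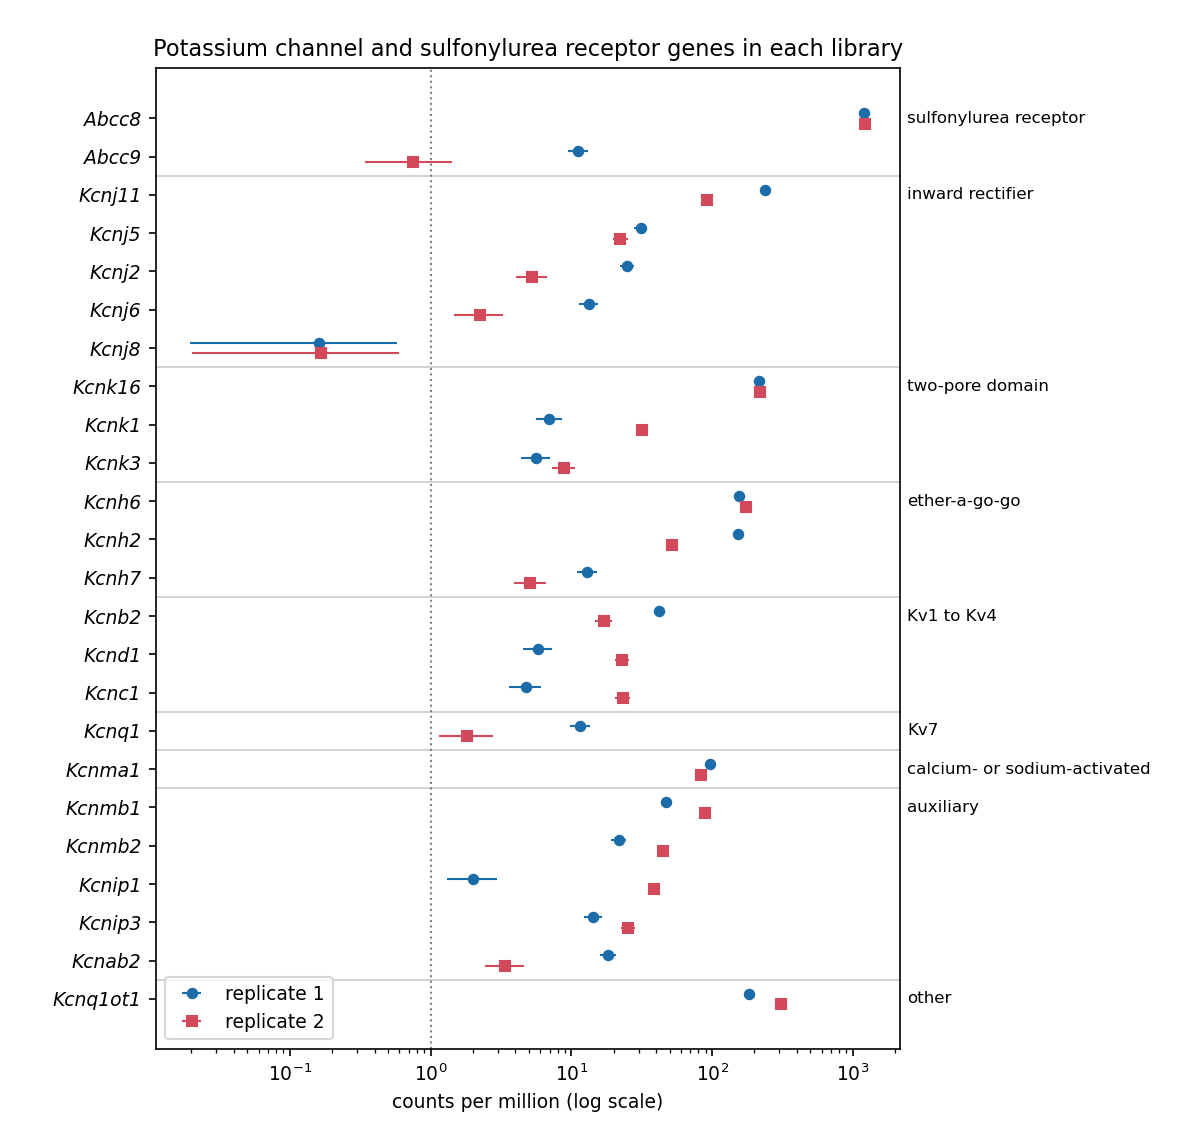
The horizontal axis gives CPM on a log scale for the members described here, grouped by class; circles are replicate 1, squares replicate 2, bars exact 95% intervals for counting error and the dotted line 1 CPM. Abcc8, Kcnk16, Kcnh6 and Kcnma1 were close between libraries, whereas Abcc9, Kcnip1 and Kcnq1 were not.

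The other inward rectifiers were lower, none above 6.62 RPKM in either library. Kcnj5, a G protein-gated channel subunit, was at 31.0 CPM in replicate 1 against 22.3 in replicate 2. Kcnj6, another such subunit, was at 13.3 and 2.23 CPM. Kcnj3, with which both can assemble, had 0 and 3 reads, although only 69.5% of its 25-base words occur in no other gene. Kcnj2, the strong inward rectifier Kir2.1, was at 24.8 and 5.29 CPM. The class had no common direction between libraries. Kcnj11, Kcnj5, Kcnj6 and Kcnj2 were lower in replicate 2, whereas Kcnj13 with 1 and 92 reads and Kcnj10 with 0 and 13 reads, both chosen after their values were seen, were higher there.

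Two-pore domain channels carry background potassium current. Kcnk16, which encodes the islet channel TALK-1, was at 214 CPM in replicate 1 (206 to 222) against 218 in replicate 2 (209.7 to 226). The libraries did not differ beyond counting error (adjusted p = 0.528, exact binomial test). Its neighbour on chromosome 14, Kcnk5 (TASK-2), had 0 and 17 reads. Kcnk1 (TWIK-1) was at 6.99 and 31.7 CPM and Kcnk3 (TASK-1) at 5.63 and 8.85 CPM. Per kb of exon Kcnk16 was above Kcnk1 by 28.8-fold in replicate 1 against 6.46-fold in replicate 2. In this class 1 gene was thus high in both libraries, 2 were detected at low level and 11 of 14 did not reach 1 CPM in both.

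Ether-a-go-go channels of the Erg group help to repolarize excitable cells. Among voltage-gated potassium channel genes, Kcnh6 and Kcnh2 of this group were the highest per kb of exon in both libraries. Kcnh6 (Erg2) was at 155 CPM in replicate 1 against 174 in replicate 2. Kcnh2 (Erg1) was at 152 and 52.0 CPM. Per kb of exon Kcnh6 was above Kcnh2 in both libraries, by 1.38-fold and 4.54-fold. Kcnh7 (Erg3) was lower, at 12.9 and 5.13 CPM or 0.884 and 0.350 RPKM, and its exons overlap those of Gca on the opposite strand. Kcnh1 (Eag1), chosen after its values were seen, had no read in replicate 1 and 122 reads in replicate 2.

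Of the Kv families, Kcnb2 (Kv2.2) was at 41.9 CPM in replicate 1 against 16.9 in replicate 2. Kcnd1 (Kv4.1) was at 5.79 and 23.0 CPM and Kcnc1 (Kv3.1) at 4.74 and 23.2 CPM. Both were thus low in replicate 1, unlike Kcnb2. Kcnc2 (Kv3.2) at 9.16 and 2.98 CPM and Kcnd3 (Kv4.3) at 7.72 and 1.07 CPM were also detected in both libraries, and both were lower in replicate 2.

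Kv7 channels carry slow, non-inactivating currents. Kcnq1 was at 11.6 CPM in replicate 1 against 1.82 in replicate 2. Kcne1, the classic partner of Kcnq1, had no read in either library, so by counting error alone its level could be as high as 0.241 and 0.248 CPM, respectively. Its relative Kcne3 had 42 reads in replicate 1 and 0 in replicate 2. Kcnq1ot1, the imprinted noncoding RNA transcribed across Kcnq1 from the opposite strand, was at 184 and 308 CPM, or 1.97 and 3.31 RPKM over an exon length of 93.1 kb. Its exons overlap those of Kcnq1, and without a known strand setting their reads cannot be separated with certainty.

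Kcnma1, the pore of the large-conductance BK channel that opens with calcium and voltage, was at 97.2 CPM in replicate 1 against 83.8 in replicate 2. Transcripts of its beta subunits, which tune calcium sensitivity and gating, accompanied it. Kcnmb1 was at 47.3 and 89.6 CPM and Kcnmb2 at 21.7 and 44.8 CPM. Per kb of exon Kcnmb1 exceeded Kcnma1 by 1.499-fold and 3.29-fold, and Kcnmb2 was at 0.922 and 2.21 of Kcnma1. Kcnmb3 had no read, and Kcnmb4 had 0 and 5, with 34.9% of its words in no other gene. None of the small-conductance Kcnn genes or the sodium-activated Kcnt genes reached 1 CPM in both libraries.

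Among other auxiliary subunits, Kcnip3 (calsenilin, a calcium sensor that binds Kv4 channels) was at 14.3 CPM in replicate 1 against 25.1 in replicate 2. Kcnip1, a Kv4 partner of the same family, was at 2.01 CPM in replicate 1 (1.30 to 2.97) against 38.7 in replicate 2 (35.3 to 42.4). Kcnmb1 lies within the span of Kcnip1 on the opposite strand, with no shared exon. Kcnab2, a cytoplasmic Kv beta subunit, was at 18.3 and 3.39 CPM. The other auxiliary genes detected in both libraries, Kcnip4, Kcne1l and Kcnab1, had means from 1.71 to 5.99 CPM. The Kv4 genes and their partners had no common direction: Kcnip3, Kcnip1 and Kcnd1 were higher in replicate 2, whereas Kcnip4, at 8.92 and 3.06 CPM, and Kcnd3 were lower.

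The libraries were compared over all 13416 genes with at least 10 reads, a test of these libraries and not of a condition. Of the 53 members tested, 46 differed beyond counting error (exact binomial test, adjusted over all genes tested), against 85.8% of all genes. With a difference over 2-fold also required, 38 of 53 members, or 71.7%, were called, against 48.2% of all genes. Of these 20 were higher in replicate 1, where 22.3% of all genes were called, and 18 in replicate 2, where 25.9% were. The median log2 ratio of replicate 2 over replicate 1 was 0.03 for the members and 0.04 for all genes tested.

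**Figure D4:**
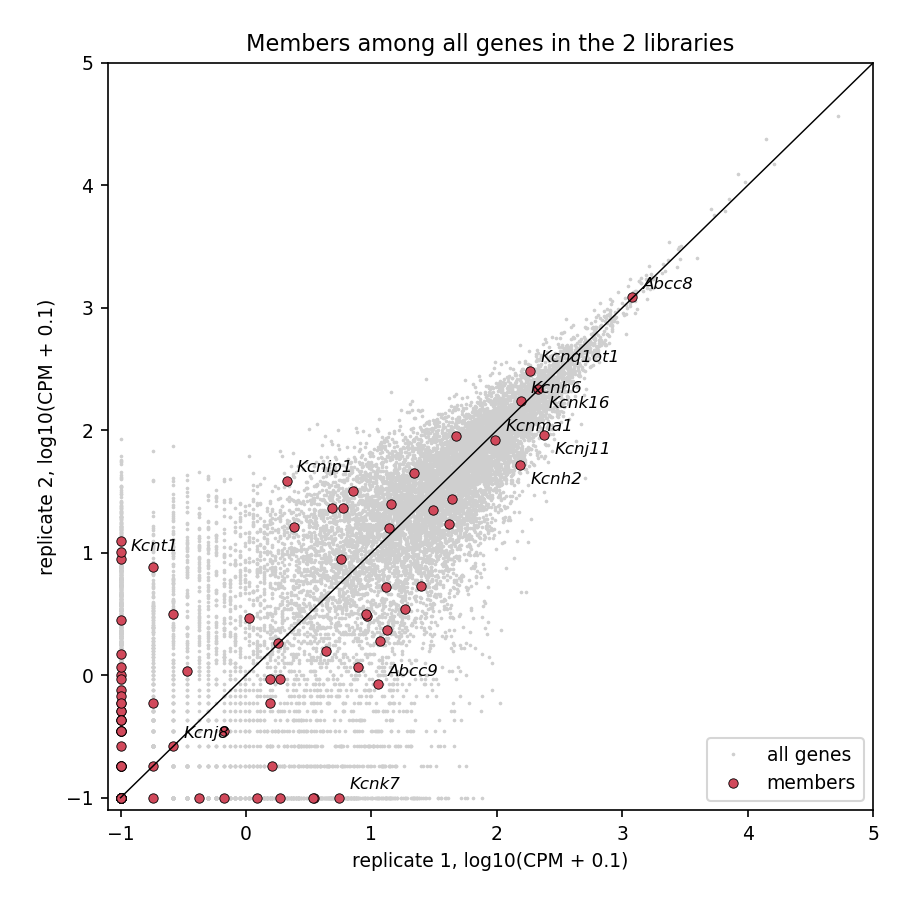
The axes give log10(CPM + 0.1) in replicate 1 (horizontal) and replicate 2 (vertical); grey points are all genes, red points the 97 members and the line marks equality. Abcc8, Kcnk16 and Kcnh6 lie on or near the line, and 28 members lie on the left edge with reads in replicate 2 only and 8 on the lower edge with reads in replicate 1 only, against 7.27% and 4.05% of all genes.

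The spread was larger at lower levels, and in each band of level a larger share of members than of all genes differed over 2-fold. Between 10 and 100 CPM, 8 of 14 members differed over 2-fold, against 43.1% of all genes at that level, and between 1 and 10 CPM 20 of 23 did, against 75.5%. At 100 CPM or more 2 of 6 did, namely Kcnj11 and Kcnh2, against 11.9%. Of the 30 members detected in both libraries 12 lay within 2-fold, and the share of all genes for this was not computed. The largest differences toward replicate 1 among members with a mean of at least 10 CPM were those of Kcnab2, Kcnj2, Kcnh2, Kcnj11 and Kcnb2, from 2.47-fold to 5.41-fold. Toward replicate 2 they were those of Kcnip1, Kcnc1, Kcnk1, Kcnd1 and Kcnmb2, from 2.06-fold to 19.3-fold.

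Some members had many reads in one library and none in the other, among them Kcnt1 with 0 and 106 reads and Kcnk7 with 68 and 0, both chosen after their values were seen. With the limit of 3 reads in place of the count of 0, Kcnt1 was 36.3-fold higher in replicate 2 and Kcnk7 22.0-fold higher in replicate 1. These values leave out the counting error of the reads that were seen, so they are not lower bounds. Elavl4, a neuronal marker, was at 35.2 CPM in replicate 1 against 5.46 in replicate 2, and Sox10 had 0 and 5 reads. The part of neural cells in the Kcnt1 and Kcnh1 reads was not tested.

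Genes outside the Kcn names that act with these channels were also checked. Their counts stand against 45.7% of all genes in the files at 1 CPM or more in both libraries. Of 7 partner genes of potassium channels 2 reached 1 CPM in both libraries: Dpp6, a Kv4 partner, at 28.0 and 70.0 CPM, and Amigo1, a Kv2 partner, at 52.4 and 60.8 CPM. Of 7 genes of the sodium-potassium pump, which builds the potassium gradient, 4 did, among them Atp1b1 at 334 and 482 CPM. Of 7 related cation channel genes 5 reached 1 CPM in both libraries, with Hcn3 at 7.23 and 9.01 CPM and Tmem175 at 41.7 and 31.9 CPM. Of 9 genes that couple glucose to the channel and the channel to calcium entry 7 reached 1 CPM in both libraries. The glucose transporter gene Slc2a2 was at 54.0 and 78.4 CPM, and the calcium channel pore genes Cacna1a, Cacna1c and Cacna1d were at 381 and 419, 58.0 and 65.6, and 66.5 and 88.9 CPM. By the same exact binomial test the genes higher in replicate 1 numbered 1 of 7 partners, 2 of 7 related channels, 1 of 7 pump genes and 3 of 9 coupling genes, where 41.7% of all genes tested were called in that direction. Those higher in replicate 2 numbered 3, 1, 4 and 6, where 44.1% of all genes tested were.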

How the data were processed

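The authors deposited raw read counts per gene symbol, 1 file per library, per the file headers and their whole-number values. The submitters' processing notes list FastQC, cutadapt, TopHat2 2.0.4, Cufflinks 2.0.2, DESeq and the build mm9, without roles or order. The counting program, annotation, strand setting and treatment of multiply mapped reads are not stated in the sources used here, so overlapping, antisense and near-identical genes are uncertain.

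Counts were scaled to CPM with TMM factors (edgeR 4.0.16, R 4.3.3). Reads of each of the 13416 genes with at least 10 reads were compared between libraries by an exact binomial test (two-sided, TMM-scaled library sizes) and adjusted by Benjamini-Hochberg, with a threshold of 0.05. edgeR's quasi-likelihood model could not be fitted with 1 library a side. This test holds counting error only and has no term for spread between libraries. Its script was tested on simulated data with counting error alone. Log2 ratios used a prior count of 2. Intervals are exact Clopper-Pearson at 95%, for a ratio of 2 genes from the binomial share. A count of 0 allows 3 counts. Intervals and limits cover counting error only.

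Exon lengths (union over the basic transcript set) and 25-base words shared between genes came from GENCODE M21 on GRCm38, not mm9. A length was found for 97.9% of symbols and for all 97 members. Gene neighbours came from the RefSeq table of GRCm38.p6 and promoter windows from RefSeq, without chromosome 18.

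Members and lists were chosen with earlier results of these data known. Named were Abcc8, Abcc9, Kcnj11 and Kcnj8; members with a mean of at least 50 CPM; up to 4 per class with the highest mean among those at 1 CPM or more in both libraries; among members averaging at least 10 CPM with adjusted p under 0.05, the 5 largest log2 ratios each way; and textbook partners of these without a read. Other members given as read counts stand outside this rule and were chosen after their values were seen. Also outside it are Kcnc2, Kcnd3, Kcnip4, Kcne1l and Kcnab1, given in CPM, and the full list of members without a read. Alternatives were other scalings (column totals, DESeq2 1.42.0 size factors, totals without Rn45s), detection limits, count filters, length corrections and leaving out each replicate.

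Besides the members, the markers checked were endocrine, ductal, acinar, pericyte and smooth muscle, mesenchymal, endothelial, neural crest and glial, immune and erythroid genes. At 1 CPM or more in both libraries were 5 of 5 ductal, 4 of 5 acinar, 0 of 5 endothelial, 2 of 4 immune and 0 of 4 erythroid genes. Their summed levels in replicates 1 and 2 were 485 and 473 CPM for ductal, 1561 and 1192 CPM for acinar, 15.8 and 0.91 CPM for endothelial, 56.4 and 11.7 CPM for immune and 0.24 and 2.81 CPM for erythroid genes. Some genes that meet the rule or belong to the lists are not reported by name here; they stay in all counts, medians and sums.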

Additional observations from a re-analysis of the deposited data

How the results depend on the processing

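No paired analysis was possible because the series has 1 group. Of 31 alternatives, 24 kept the value within the replicate SD or, for a count, within 1.5 times. This tally does not measure stability, since some of the 24 could not move. With 2 libraries, leaving out either keeps the share of reads within its SD. For Abcc8 and Kcnj11 the longest transcript is as long as the union of exons. For Abcc8 to Abcc9 the SD was larger than the ratio itself. The number of members detected in both libraries was 19 at a limit of 5 CPM and 17 at 1 RPKM, against 30, and 39 and 40 in single libraries. The members' share of reads, 0.263% on average, was 0.275% without Rn45s in the totals and 0.142% without Abcc8. Without 1 or the other replicate the ratio of Abcc8 to Kcnj11 per kb was 3.24 to 8.62, against 4.73 with both, that of Abcc8 to Abcc9 by CPM 107 to 1645, against 203, and that of Kcnj11 to Kcnj8 553 to 1483. Kcnj8 rests on 2 reads a library and Abcc9 on 9 reads in replicate 2. With at least 100 reads required, 29 of 32 members differed between the libraries, since fewer were tested. No share of all genes was computed at this filter or at 1 RPKM, so these counts describe the members only. Of the 10 highest members per kb of exon, 8 were among the 10 highest by CPM. Depth limits the scarce members: 1 CPM is about 12 reads. Single levels under 100 CPM are uncertain, and levels above it can be too. At 100 CPM or more 2 of 6 members still differed over 2-fold between libraries, against 11.9% of all genes.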
